A study of Mus musculus with 20 samples.

Results

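Semaphorins, plexins and neuropilins are the ligands and receptors of one guidance system. Their 31 members among 24848 gene symbols in the deposited tables were taken by symbol: Sema3 to Sema7 with a letter, Plxn with a letter and a number, and Nrp1 and Nrp2. They comprise 7 secreted class 3 semaphorins, 13 membrane-bound semaphorins, 9 plexins and 2 neuropilins. Their transcripts were measured by stranded mRNA sequencing in 20 libraries of C57BL/6 mouse liver cells, 4 in each of 5 groups. PMSC are cells labelled as portal mesenchymal stem cells, taken fresh. PMSC-MF-3d and PMSC-MF-7d are myofibroblasts grown from them in culture for 3 and 7 days. HSC-MF-7d are myofibroblasts grown from hepatic stellate cells, the vitamin A-storing pericytes of the liver sinusoid, and HSC are those stellate cells taken fresh. The sample titles give 7 days for the stellate myofibroblasts and the series design text gives 3 days, so their culture time is uncertain in every comparison that uses them. No genetic change or added agent is named for any group. The labels give no age or sex, no method of isolation and no number or pooling of animals. Nor do they say whether each library had an animal of its own, so every p-value speaks of the scatter among the libraries at hand, part of which may be technical.

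Semaphorins were first described as repellents of growing axons and also act on vessels, immune cells and connective tissue. Secreted class 3 semaphorins bind a neuropilin, and the neuropilin passes the signal through a class A plexin or plexin D1, except that Sema3e can bind plexin D1 directly. Membrane-bound semaphorins of classes 4 to 7 bind plexins on a neighbouring cell. Plexins act through a GTPase-activating domain in their cytoplasmic part that switches off small GTPases of the R-Ras and Rap families, which loosens integrin adhesion and reshapes actin. Neuropilins are also co-receptors of vascular endothelial growth factor (VEGF), and in the liver Nrp1 is known on sinusoidal endothelium and on stellate cells.

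Library totals ran from 11810532 to 26675589 counts, which put 3 counts, taken as the floor, at 0.0520 CPM over the fresh PMSC group. CPM are counts scaled to a common library size with edgeR's TMM factors and serve to compare libraries. TPM are the deposited abundances, which account for gene length and serve to compare genes. Markers of the labelled origin separated the fresh groups: 12 portal fibroblast genes summed to 19166 to 21919 CPM in PMSC and 158 to 273 CPM in HSC, and 12 stellate genes to 1993 to 2520.2 CPM in PMSC and 23822 to 35547 CPM in HSC. The fresh stellate libraries also held transcripts of other liver cells. The 14 endothelial markers summed to 98.8 to 365 CPM in PMSC and 8254 to 10341 CPM in HSC, and none was at 0 in either. The 12 Kupffer cell and macrophage markers summed to 20.4 to 27.8 CPM in PMSC, where Cd163, Vsig4 and Marco were at 0, and to 3113 to 11564 CPM in HSC. The 10 hepatocyte markers summed to 684 to 1109 CPM in PMSC, and to 14132, 14270.3, 3324 and 4654 CPM in HSC replicates 1 to 4. Fresh PMSC in turn held more of the 8 smooth muscle and myofibroblast markers, at 8293 to 11779 CPM, against 353 to 729 CPM in HSC. The 7 mesothelial markers summed to 61.8 to 119 CPM in PMSC and 9.41 to 49.1 CPM in HSC. Of these 7, 1 was called higher and 2 lower in PMSC. In HSC-MF-7d the endothelial sum was 232 to 288 CPM and the Kupffer cell sum 30.5 to 57.9 CPM, and in PMSC-MF-7d they were 143 to 329 and 10.7 to 15.6 CPM. The 6 cycling-cell genes summed to 721 to 838 CPM in PMSC-MF-7d, 9.04 to 25.8 CPM in PMSC, 347 to 398 CPM in HSC-MF-7d and 53.5 to 80.6 CPM in HSC. The part of these cells in the values of semaphorins, plexins and neuropilins was not tested, and in such bulk samples fewer cells of a type and less RNA per cell cannot be told apart.

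All 31 members passed the filter on low counts. In fresh PMSC against fresh HSC, 27 of the 31 members differed, 13 higher and 14 lower, where 73.7% of the 14751 genes tested differed, 33.6% higher and 40.1% lower (edgeR quasi-likelihood test with Benjamini-Hochberg adjustment, adjusted p under 0.05, as in every call below). Values given with an SE below are log2 fold changes of that fit, first-named group over second. The members' median log2 fold change was -0.044, against -0.10 over all genes, and the median size of the change was 2.20 for members and 0.90 for all genes. The members thus split evenly by direction, with changes larger in size at the median than those of all genes. Scaling by library totals alone moved the median of all genes in this comparison to -0.44, and the higher share of all calls from 45.6% to 33.3%. PMSC had 26 members at 1 TPM or more and 16 at 10 TPM or more, and HSC had 22 and 16.

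**Figure D1:**
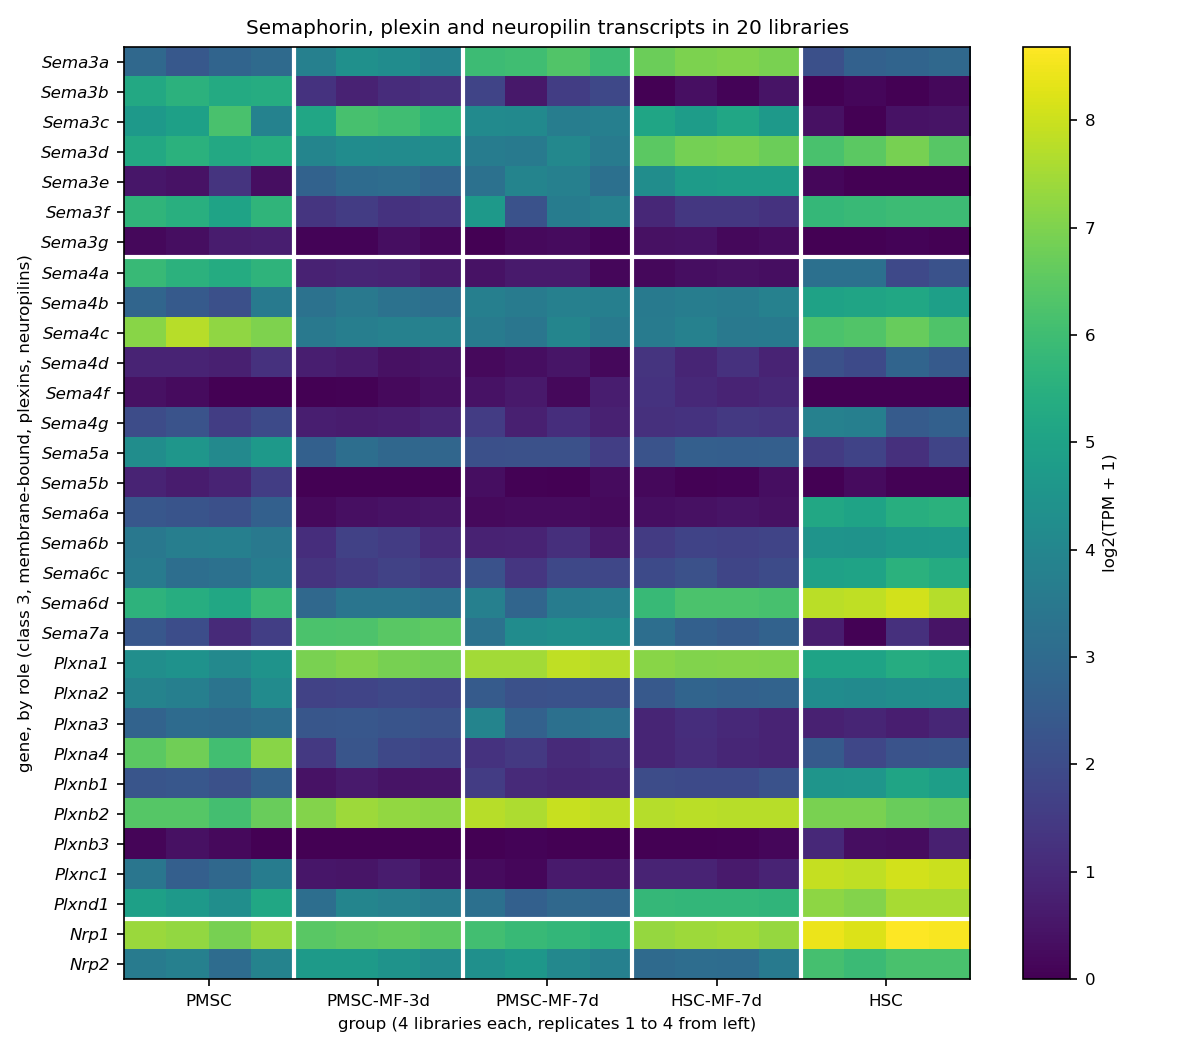
Level of the 31 semaphorins, plexins and neuropilins in each of the 20 libraries, as log2(TPM + 1) by colour, with genes in rows by role and libraries in columns by group. Plxna4, Sema3b and Sema4a are bright in the 4 PMSC libraries, and Plxnc1, Sema6d and Plxnd1 in the 4 HSC libraries. Plxna1 and Plxnb2 are bright in all 12 cultured libraries.

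Most of the family was lower after culture in both lineages. The endothelial markers also fell, from 8254 to 10341 CPM in HSC to 232 to 288 CPM in HSC-MF-7d. Whether members lower in HSC-MF-7d fell in the stellate cells or went with other cells was not tested. In PMSC-MF-7d against PMSC, 28 of 31 members changed, 6 higher and 22 lower, where 77% of all genes changed and 39% were lower. In HSC-MF-7d against HSC, 27 members changed, 9 higher and 18 lower, where 74.5% of all genes changed and 38.5% were lower. The median log2 fold change of the members was -2.29 in the portal culture and -1.74 in the stellate culture, against -0.0019 and -0.029 over all genes. In all, 16 members fell in both cultures, which is 72.7% of those lower in the portal culture and 88.9% of those lower in the stellate culture, against 61.8% and 62.6% over all genes. Of the genes tested, 24.1% fell in both, against 51.6% of the members. A further 5 rose in both cultures: Sema3a, Sema3e and Sema7a among the ligands, and Plxna1 and Plxnb2 among the receptors. That is 16.1% of the members, against 23% of all genes tested. Another 4 moved in opposite directions, with Sema3c, Sema3g and Sema5a lower in the portal and higher in the stellate culture and Sema4b the reverse. As given below, the Sema4b increase was lost without any one of several libraries, Sema3g rests on few counts in HSC, and Sema3c fell only after day 3. Scaling by library totals moved the median of all genes to 0.43 in the portal culture and left 22 members lower there, with 7 higher.

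**Figure D2:**
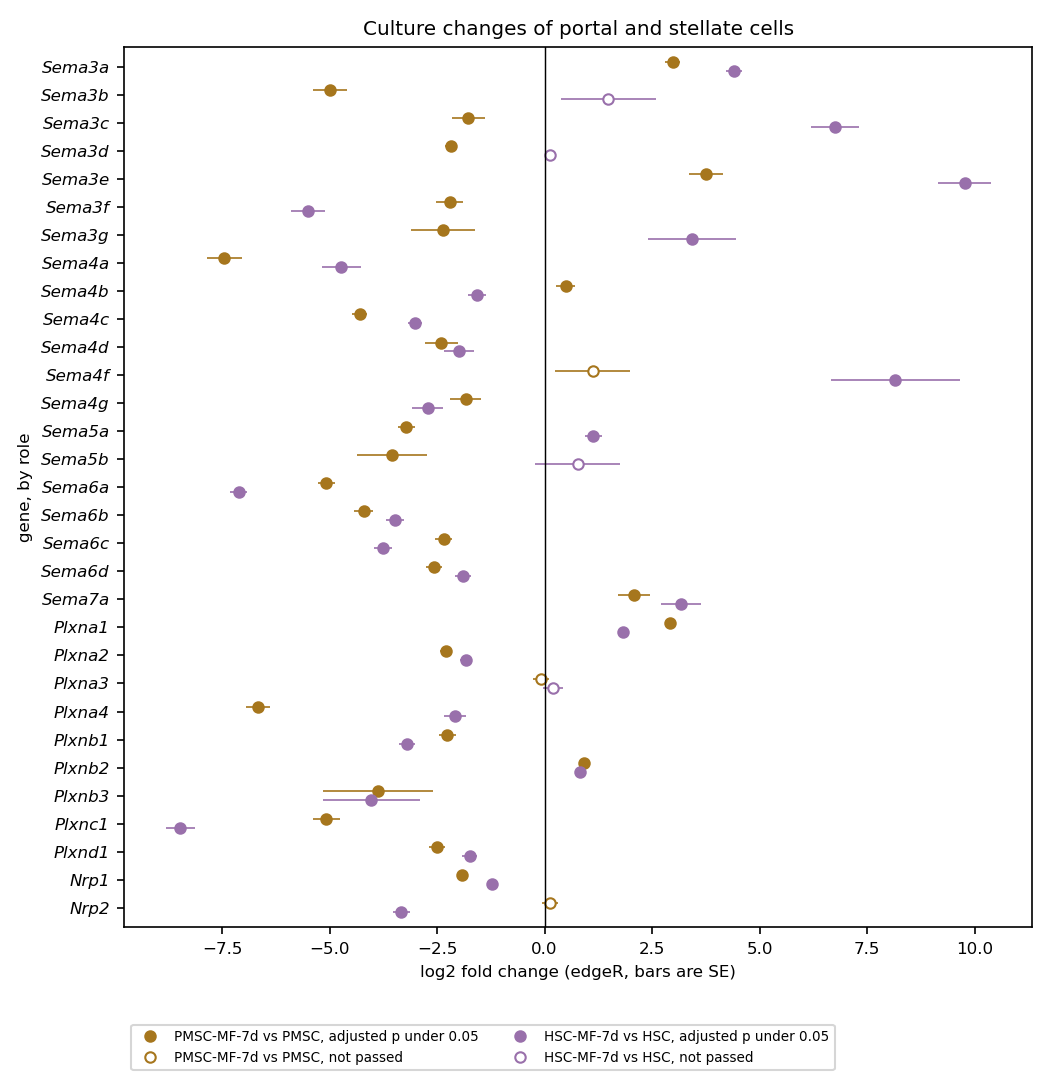
Log2 fold change with its standard error for each member in PMSC-MF-7d against PMSC and in HSC-MF-7d against HSC, open where the adjusted p was 0.05 or more. Most points lie below 0 in both cultures, and Sema3c and Sema5a lie on opposite sides of 0. The points of Sema4f, which had no count in HSC, depend on the prior count of the fit.

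The summed level of each role is given as a description, with no test. Membrane-bound semaphorins summed to 312 ± 37.3 TPM in PMSC, 124 ± 10.2 TPM in PMSC-MF-3d and 59.1 ± 6.3 TPM in PMSC-MF-7d, and to 111 ± 8.44 TPM in HSC-MF-7d, against 468 ± 47.8 TPM in HSC (mean ± SD, n = 4 libraries, as for each such value below). Class 3 semaphorins summed to 166 ± 15.2 TPM in PMSC, 96.9 ± 20.9 TPM in PMSC-MF-3d and 119 ± 12.1 TPM in PMSC-MF-7d, and to 285 ± 30.1 TPM in HSC-MF-7d, against 155 ± 22.3 TPM in HSC. The secreted ligands therefore made up more of the semaphorin transcripts in both 7-day cultures than in the fresh cells. Plexins summed to 263 ± 61.6 TPM in PMSC, 294 ± 24.3 TPM in PMSC-MF-3d and 442 ± 47.4 TPM in PMSC-MF-7d, and to 412 ± 4.36 TPM in HSC-MF-7d, against 604 ± 41.4 TPM in HSC. The plexin sum was highest at day 7 in the portal series, while in the stellate pair it was lower after culture. Neuropilins summed to 161 ± 24.3 TPM in PMSC, 115 ± 6.75 TPM in PMSC-MF-3d and 72.9 ± 11.7 TPM in PMSC-MF-7d, and to 174 ± 8.34 TPM in HSC-MF-7d, against 426 ± 56.4 TPM in HSC, lower after culture in both lineages.

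Promoter sequences are shown for 4 members whose transcripts moved the same way in both cultures: Sema3e, Sema3a and Sema7a, which rose, and Plxnc1, which fell. Each is the 250 bases before a RefSeq transcript start in build GRCm38.p6, written 5′ to 3′ along the gene, with GC boxes (GGGCGG on either strand) in capitals. They lie at chr5:14025026-14025275 on the plus strand, chr5:13396534-13396783 on the plus strand, chr9:57939862-57940111 on the plus strand and chr10:94944846-94945095 on the minus strand.
Sema3e: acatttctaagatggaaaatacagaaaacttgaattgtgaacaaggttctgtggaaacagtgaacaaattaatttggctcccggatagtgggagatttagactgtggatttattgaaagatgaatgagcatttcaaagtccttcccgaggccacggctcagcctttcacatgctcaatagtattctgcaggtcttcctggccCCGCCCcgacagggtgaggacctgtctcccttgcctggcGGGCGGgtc
Sema3a: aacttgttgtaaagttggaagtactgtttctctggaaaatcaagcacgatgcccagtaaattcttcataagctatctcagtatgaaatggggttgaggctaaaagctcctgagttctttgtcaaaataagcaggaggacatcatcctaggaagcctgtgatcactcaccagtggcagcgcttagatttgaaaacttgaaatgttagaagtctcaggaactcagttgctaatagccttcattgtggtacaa
Sema7a: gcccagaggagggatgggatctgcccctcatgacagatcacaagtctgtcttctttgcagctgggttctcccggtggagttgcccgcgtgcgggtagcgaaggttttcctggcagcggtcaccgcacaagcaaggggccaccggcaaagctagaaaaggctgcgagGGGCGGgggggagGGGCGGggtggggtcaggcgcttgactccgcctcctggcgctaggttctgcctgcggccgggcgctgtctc
Plxnc1: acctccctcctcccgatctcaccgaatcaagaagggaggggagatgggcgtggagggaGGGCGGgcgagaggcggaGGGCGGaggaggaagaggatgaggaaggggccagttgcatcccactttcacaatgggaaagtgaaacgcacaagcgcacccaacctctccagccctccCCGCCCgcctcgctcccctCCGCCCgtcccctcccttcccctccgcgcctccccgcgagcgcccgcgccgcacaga
The Plxnc1 window held 4 GC boxes and 68.8% G or C, the Sema7a window 2 and 66.4%, and the Sema3e window 2 and 48%. The Sema3a window held none and 40.8% G or C, and no match in it to the other motifs searched. This window lies inside the gene, which begins at position 13124822, so the first start of Sema3a was not examined. RefSeq promoters matched 26 of the 31 members, with 37 promoters in all, and none was matched for Sema3f, Sema6a, Sema3b, Plxna4 and Plxna1. GC boxes stood in 27 of the 37, against 32.7% of 32851 mouse promoters of this length, and the median G or C content was 64.0% for members and 52.4% for all. TATAAA stood in 0 of the 37 and in 12.4% of all. The AP-1 motif TGANTCA stood in 3 (Sema4c, Sema4d and Sema6b) and in 6.75% of all, and the TEAD motif GGAATG in 3 (Plxnb1, Plxnd1 and Sema4a) and in 12.6% of all. Both strands were read, promoters of one gene can overlap, and a match is a run of letters, not a binding site.

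Among the secreted ligands, Sema3a and Sema3e rose in both cultures. Sema3a, the first semaphorin found to collapse axonal growth cones, had 27.7, 16.6, 23.6 and 25.8 CPM in PMSC, 39, 58.8, 50.8 and 41.5 CPM in PMSC-MF-3d and 165, 185, 217 and 173 CPM in PMSC-MF-7d. In the stellate lineage it had 290.2, 342, 358 and 336 CPM in HSC-MF-7d, against 10.5, 16.7, 17.3 and 18.2 CPM in HSC. It was the most abundant class 3 semaphorin of PMSC-MF-7d, at 66.5 ± 8.8 TPM, while in HSC-MF-7d its 120.2 ± 11.5 TPM lay within the spread of Sema3d at 108 ± 14.6 TPM. No cultured library overlapped its fresh source in either lineage, and the 2 portal culture times did not overlap. The log2 fold change was 2.98 ± 0.18 (SE, edgeR adjusted p = 9.98e-12) in the portal culture and 4.40 ± 0.19 (SE, edgeR adjusted p = 1.27e-13) in the stellate culture. The portal increase was in steps, 1.02 ± 0.17 (SE, edgeR adjusted p = 1.94e-05) by day 3 and a further 1.96 ± 0.17 (SE, edgeR adjusted p = 6.82e-08) to day 7. The stellate increase was larger by 1.42 on the log2 scale (difference -1.42 ± 0.24 (SE, edgeR adjusted p = 4.2e-05)). In fresh cells Sema3a was higher in PMSC than in HSC by 0.58 (edgeR adjusted p = 0.00593), with overlapping libraries, and this call was lost with library totals (0.24, adjusted p = 0.229) and without HSC replicates 1 and 2 (0.39, adjusted p = 0.0733).

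Sema3e, the ligand of plexin D1 that restrains vessel growth in the mouse embryo, was low in fresh PMSC and near the floor in fresh HSC. It had 1.86, 1.39, 6.16 and 0.988 CPM in PMSC, 18, 22.2, 23.2 and 19 CPM in PMSC-MF-3d and 23.7, 42.4, 36.1 and 24.7 CPM in PMSC-MF-7d. The stellate cultures had 51.6, 74.1, 77.9 and 78.6 CPM in HSC-MF-7d, against 0.302, 0, 0 and 0 CPM in HSC. All 12 cultured libraries stood above all 8 fresh ones. Sema3e rose by 3.75 ± 0.40 (SE, edgeR adjusted p = 4.68e-08) in PMSC-MF-7d against PMSC and by 9.77 ± 0.61 (SE, edgeR adjusted p = 2.29e-11) in HSC-MF-7d against HSC. The portal value was 4.50 without PMSC replicate 3. HSC replicate 1 was the one HSC library with any count, so the fitted sizes against HSC rest on it and are no measure of fold. Sema3e had 5068 counts over the HSC-MF-7d group, 126 over the PMSC group and 0 over HSC replicates 2, 3 and 4. No lower bound on the fold is given, because HSC replicate 1 held counts, at 0.302 CPM. PMSC stood above HSC by 4.86 ± 0.82 (SE, edgeR adjusted p = 2.52e-05), or 4.12 without PMSC replicate 3. Between the culture changes there was a difference of -6.02 ± 0.87 (SE, edgeR adjusted p = 6.72e-06), or -5.28 without PMSC replicate 3, and this size too rests on HSC replicate 1.

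Sema3c, which guides migrating neural crest cells in the heart outflow tract, took opposite courses. It had 74.4, 85.8, 211 and 36 CPM in PMSC, 78.5, 154, 137 and 113 CPM in PMSC-MF-3d and 33.6, 34.4, 24.2 and 26.4 CPM in PMSC-MF-7d. HSC-MF-7d held 69.1, 54, 69.4 and 49.1 CPM, while HSC held 0.724, 0, 0.715 and 0.784 CPM. It was thus a portal transcript among fresh cells, was present in both cultures, and was the most abundant class 3 semaphorin of PMSC-MF-3d, at 54.6 ± 15.6 TPM. Fresh PMSC exceeded fresh HSC by 7.50 ± 0.57 (SE, edgeR adjusted p = 5.51e-10), and by 6.87 without PMSC replicate 3, the library with 211 CPM. Culture raised it by 6.75 ± 0.57 (SE, edgeR adjusted p = 1.8e-09) in the stellate lineage and lowered it, with a log2 fold change of -1.77 ± 0.38 (SE, edgeR adjusted p = 0.00029) in the portal lineage (-1.14 without PMSC replicate 3). The portal fall lay between day 3 and day 7, at -2.02 ± 0.38 (SE, edgeR adjusted p = 0.000345), and no change passed the test by day 3 (0.25 ± 0.36 (SE, edgeR adjusted p = 0.538)). The difference between the culture changes was -8.52 ± 0.69 (SE, edgeR adjusted p = 3.24e-09), or -7.89 without PMSC replicate 3.

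**Figure D3:**
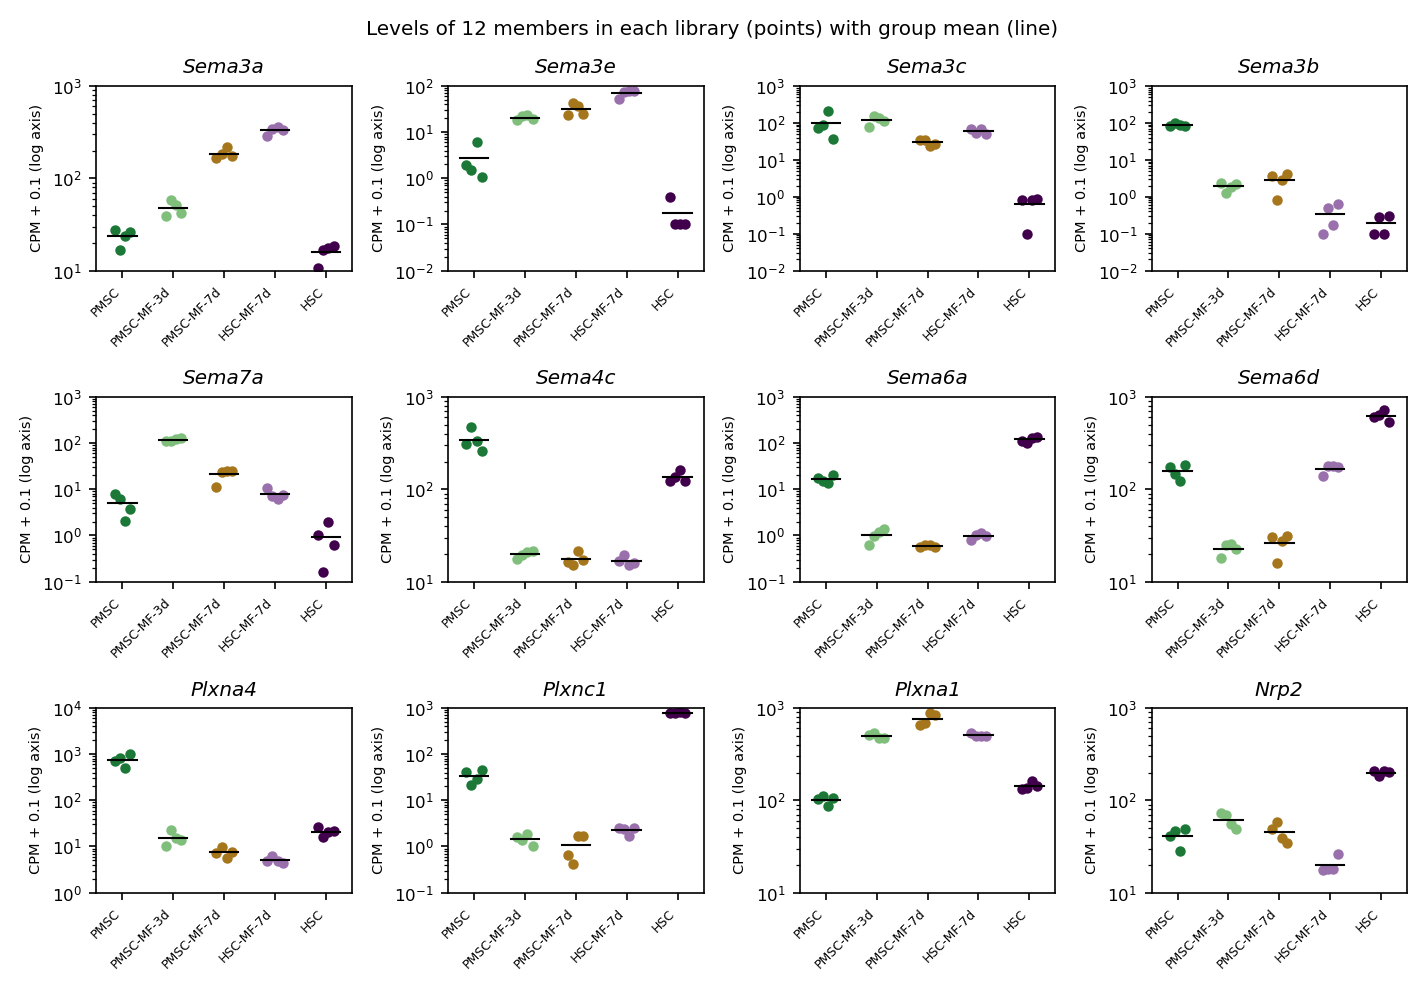
CPM + 0.1 on a log axis for 12 members, with 1 point per library and a line at each group's mean. Sema3a and Sema3e sit higher in every cultured group than in either fresh group, Sema7a peaks in the 4 PMSC-MF-3d libraries, and Plxna4 and Plxnc1 are high in 1 fresh group each.

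Sema3b and Sema3f are neighbours on chromosome 9, at 107597674 to 107609241 and 107681499 to 107710475 in GRCm38.p6, and both have been studied as tumour suppressors. Sema3b had 83.2, 100.3, 87.4 and 84.4 CPM in PMSC, 2.28, 1.2, 1.76 and 2.14 CPM in PMSC-MF-3d and 3.58, 0.734, 2.82 and 3.99 CPM in PMSC-MF-7d. The stellate lineage had 0, 0.405, 0.0681 and 0.531 CPM in HSC-MF-7d, against 0, 0.179, 0 and 0.196 CPM in HSC. Among fresh cells it was a portal transcript, with 83.2 to 100.3 CPM in PMSC and at most 0.196 CPM in HSC. The fitted value of 9.85 ± 0.60 (SE, edgeR adjusted p = 2.05e-11) in PMSC against HSC rests on few HSC counts and is no measure of fold. In the portal culture Sema3b fell, with a log2 fold change of -4.98 ± 0.39 (SE, edgeR adjusted p = 6.26e-10). Its day 7 portal level was still above that of HSC-MF-7d by 3.39 ± 0.57 (SE, edgeR adjusted p = 6.22e-05), or 4.03 without HSC-MF-7d replicate 4. In HSC-MF-7d against HSC the value was 1.48 ± 1.10 (SE, edgeR adjusted p = 0.232), at levels near the floor. The difference between the culture changes was -6.46 ± 1.19 (SE, edgeR adjusted p = 0.000107), or -5.82 without HSC-MF-7d replicate 4, and this size too rests on few counts.

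Sema3f, the class 3 ligand that prefers neuropilin 2, had 99.1, 82.8, 62.3 and 90.1 CPM in PMSC, 2.28, 2.81, 1.98 and 2.37 CPM in PMSC-MF-3d and 33, 4.97, 15.8 and 18.5 CPM in PMSC-MF-7d. It had 1.31, 2.23, 2.18 and 1.91 CPM in HSC-MF-7d, against 82.3, 89, 87 and 86.9 CPM in HSC. Fresh PMSC and HSC overlapped, at -0.044 ± 0.31 (SE, edgeR adjusted p = 0.907). The fall by day 3 was -5.14 ± 0.38 (SE, edgeR adjusted p = 2.28e-10), and between day 3 and day 7 the level rose by 2.93 ± 0.36 (SE, edgeR adjusted p = 4.72e-06), with every day 7 library above every day 3 library. Stellate culture lowered it, with a log2 fold change of -5.50 ± 0.40 (SE, edgeR adjusted p = 2.42e-10). PMSC-MF-7d stood above HSC-MF-7d by 3.25 ± 0.39 (SE, edgeR adjusted p = 1.11e-06), and PMSC-MF-3d, at 0.31 ± 0.42 (SE, edgeR adjusted p = 0.56) against HSC-MF-7d, overlapped it.

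Sema3d, a ligand of neuropilin 1 known from heart and vein development, was the most abundant class 3 semaphorin of fresh HSC, at 90.9 ± 19.2 TPM, while in fresh PMSC Sema3f averaged 43.7 ± 8.49 TPM, Sema3b 40.8 ± 4.02 TPM, Sema3d 40.0 ± 4.3 TPM and Sema3c 34.8 ± 25.4 TPM, within the spread of one another. It had 146, 174, 143 and 151 CPM in PMSC, 43.4, 52.3, 49.7 and 53.6 CPM in PMSC-MF-3d and 30.7, 31.1, 41.7 and 31.6 CPM in PMSC-MF-7d. HSC-MF-7d had 243, 313, 325 and 285 CPM, against 217, 273, 335 and 238 CPM in HSC. The portal culture thus lost Sema3d, with a log2 fold change of -2.18 ± 0.14 (SE, edgeR adjusted p = 1.69e-11), while the stellate libraries overlapped before and after culture, at 0.13 ± 0.13 (SE, edgeR adjusted p = 0.362). The difference between the culture changes was -2.32 ± 0.19 (SE, edgeR adjusted p = 3.03e-09), and the value in PMSC-MF-7d against HSC-MF-7d was -3.11 ± 0.14 (SE, edgeR adjusted p = 3.82e-12). Sema3g, a class 3 semaphorin known from endothelium, stayed under 1 TPM on average in all 5 groups, with 2 counts over the 4 HSC libraries. PMSC held 27.8 times the HSC level (95% counting interval 7.29 to 236), and HSC-MF-7d held 12.9 times that level (3.26 to 112). The fitted Sema3g increase in HSC-MF-7d lost its call without HSC replicates 1 and 2 (edgeR adjusted p = 0.0652).

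Both neuropilins were lower in fresh PMSC than in fresh HSC. Nrp1, the co-receptor of Sema3a and of VEGF, had 597, 535, 419.6 and 528 CPM in PMSC, 240.4, 249, 257 and 237 CPM in PMSC-MF-3d and 159, 143, 129 and 118 CPM in PMSC-MF-7d. It had 389.9, 412, 426 and 390.2 CPM in HSC-MF-7d, against 925, 819, 1057 and 980.0 CPM in HSC. Nrp1 was the more abundant neuropilin in all 5 groups, with 150.2 ± 21.8 TPM in PMSC and 358 ± 50.4 TPM in HSC, where it was the most abundant member of the whole family. PMSC lay below HSC, with a log2 fold change of -0.86 ± 0.10 (SE, edgeR adjusted p = 3.95e-07). Culture lowered Nrp1 in both lineages, with a log2 fold change of -1.92 ± 0.11 (SE, edgeR adjusted p = 3.09e-12) in the portal and -1.22 ± 0.11 (SE, edgeR adjusted p = 2.45e-09) in the stellate lineage, with no overlap between fresh and cultured libraries of a lineage. The difference between these changes was -0.70 ± 0.15 (SE, edgeR adjusted p = 0.000408), which was lost on log2(TPM + 1) with limma (-0.33, adjusted p = 0.0808). Fresh HSC libraries also held the endothelial markers given above, whose part in the Nrp1 level was not tested.

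Nrp2, the Sema3f and VEGF-C co-receptor of lymphatic vessels and neurons, behaved differently in the 2 lineages. It had 41.3, 46.7, 27.9 and 48.7 CPM in PMSC, 73.2, 68.9, 55.8 and 48.2 CPM in PMSC-MF-3d and 48.8, 58.8, 38.6 and 34 CPM in PMSC-MF-7d. HSC-MF-7d had 17.6, 17.9, 17.9 and 26 CPM, against 208, 181, 207 and 202 CPM in HSC. PMSC lay below HSC, with a log2 fold change of -2.27 ± 0.19 (SE, edgeR adjusted p = 2.29e-09). Stellate culture lowered it, with a log2 fold change of -3.33 ± 0.20 (SE, edgeR adjusted p = 1.35e-11), while the portal value at day 7 was 0.13 ± 0.18 (SE, edgeR adjusted p = 0.545) with overlapping libraries. With library totals the portal value passed the test, at 0.59 (edgeR adjusted p = 0.0065). Portal minus stellate culture change was 3.45 ± 0.27 (SE, edgeR adjusted p = 1.88e-09). The order of the lineages was the opposite in culture: PMSC-MF-7d stood above HSC-MF-7d by 1.18 ± 0.19 (SE, edgeR adjusted p = 3.68e-05), where fresh PMSC had stood below fresh HSC. The endothelial markers of fresh HSC, given above, were not tested for a part in the Nrp2 level.

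Among the plexins, the fresh groups were marked by different receptors. Plxna4, the class A plexin that mediates Sema3a and class 6 signals in sensory and sympathetic axons, had 695, 824, 498 and 988 CPM in PMSC, 10.2, 22.6, 15.1 and 13.5 CPM in PMSC-MF-3d and 7.24, 9.62, 5.64 and 7.35 CPM in PMSC-MF-7d. In the stellate lineage it had 4.63, 5.98, 4.84 and 4.3 CPM in HSC-MF-7d, against 26.2, 15.9, 20.5 and 21.3 CPM in HSC. At 101 ± 31.7 TPM it was the most abundant plexin of fresh PMSC, above Plxnb2 at 83.8 ± 15.3 TPM, from which it did not stand apart by more than its spread. PMSC stood above HSC by 5.16 ± 0.26 (SE, edgeR adjusted p = 1.29e-12), and culture lowered it, with a log2 fold change of -6.65 ± 0.28 (SE, edgeR adjusted p = 5.06e-14) in the portal and -2.08 ± 0.25 (SE, edgeR adjusted p = 3.27e-07) in the stellate lineage. Most of the portal fall had come by day 3 (-5.61 ± 0.26 (SE, edgeR adjusted p = 2.45e-13)). The difference between the culture changes was -4.57 ± 0.35 (SE, edgeR adjusted p = 1.44e-09), and the day 7 myofibroblasts of the 2 lineages overlapped (0.59 ± 0.25 (SE, edgeR adjusted p = 0.0613)). An annotated antisense gene, Plxna4os1, overlaps Plxna4, and the strand setting of the counting is unknown, so reads of the pair may not be separable.

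Plxnc1, the receptor of Sema7a, had 41.3, 21.6, 28.5 and 45.5 CPM in PMSC, 1.48, 1.27, 1.76 and 0.94 CPM in PMSC-MF-3d and 0.543, 0.326, 1.58 and 1.56 CPM in PMSC-MF-7d. HSC-MF-7d had 2.42, 2.33, 1.57 and 2.39 CPM, against 777, 762, 830.0 and 764 CPM in HSC. At 247 ± 16.9 TPM it was the most abundant plexin of fresh HSC, and all 12 cultured libraries held at most 2.42 CPM. PMSC lay below HSC, with a log2 fold change of -4.51 ± 0.27 (SE, edgeR adjusted p = 1.78e-11). It fell, with a log2 fold change of -8.47 ± 0.34 (SE, edgeR adjusted p = 4.51e-14) in stellate culture and with one of -5.07 ± 0.32 (SE, edgeR adjusted p = 1.91e-11) in portal culture. The difference between those changes was 3.40 ± 0.45 (SE, edgeR adjusted p = 2.45e-06). Among myofibroblasts PMSC-MF-7d lay below HSC-MF-7d, with a log2 fold change of -1.11 ± 0.36 (SE, edgeR adjusted p = 0.0166), at levels of 0.326 to 1.58 CPM and 1.57 to 2.42 CPM, and this call was lost without PMSC-MF-7d replicate 1, PMSC-MF-7d replicate 2 or HSC-MF-7d replicate 4 (adjusted p = 0.0714, 0.0573 and 0.0509). Fresh HSC libraries also held Kupffer cell marker sums of 3113 to 11564 CPM and endothelial marker sums of 8254 to 10341 CPM, whose part in the Plxnc1 level was not tested.

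Plxnd1, the Sema3e receptor best known from endothelium, had 124, 99.3, 77.1 and 135 CPM in PMSC, 25, 44.5, 40.2 and 35.4 CPM in PMSC-MF-3d and 23.5, 15.8, 19 and 18.8 CPM in PMSC-MF-7d. It had 156, 151, 149 and 144 CPM in HSC-MF-7d, against 467, 429, 561 and 551 CPM in HSC. The stellate lineage was the higher one both fresh and cultured: PMSC lay below HSC, with a log2 fold change of -2.20 ± 0.18 (SE, edgeR adjusted p = 1.07e-09) and PMSC-MF-7d below HSC-MF-7d, with a log2 fold change of -2.96 ± 0.18 (SE, edgeR adjusted p = 1.8e-10). Culture lowered Plxnd1, with a log2 fold change of -2.50 ± 0.18 (SE, edgeR adjusted p = 1.51e-10) in the portal and -1.74 ± 0.17 (SE, edgeR adjusted p = 1.94e-08) in the stellate lineage. The difference of -0.76 ± 0.24 (SE, edgeR adjusted p = 0.0102) between these changes was lost with library totals (-0.41, adjusted p = 0.153) and without HSC replicates 1 and 2 (-0.59, adjusted p = 0.0692). The fresh HSC level stood beside endothelial marker sums of 8254 to 10341 CPM, whose part was not tested, while in HSC-MF-7d the same markers summed to 232 to 288 CPM.

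Plxna1 and Plxnb2 were the receptors that rose. Plxna1, the partner of Sema6d and of neuropilin 1, had 103, 111, 86.7 and 105 CPM in PMSC, 513, 540.4, 473 and 475 CPM in PMSC-MF-3d and 656, 694, 874 and 836 CPM in PMSC-MF-7d. It had 531, 497, 501 and 494 CPM in HSC-MF-7d, against 133, 135, 163 and 143 CPM in HSC. The portal series rose at each time, by 2.30 ± 0.10 (SE, edgeR adjusted p = 9.75e-14) to day 3 and 0.61 ± 0.10 (SE, edgeR adjusted p = 7.03e-05) from day 3 to day 7. The change over the whole portal culture was 2.91 ± 0.11 (SE, edgeR adjusted p = 5.4e-15), against 1.82 ± 0.10 (SE, edgeR adjusted p = 3.63e-12) in the stellate culture, and the difference of 1.09 ± 0.14 (SE, edgeR adjusted p = 1.37e-06) passed the test. PMSC-MF-7d stood above HSC-MF-7d by 0.60 ± 0.10 (SE, edgeR adjusted p = 4.74e-05), where fresh PMSC stood below fresh HSC, with a log2 fold change of -0.50 ± 0.10 (SE, edgeR adjusted p = 0.000148).

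Plxnb2, the Sema4c and Sema4g receptor, had the highest mean of any plexin in all 3 cultured groups, with 151 ± 15 TPM in PMSC-MF-3d, 220.1 ± 21.2 TPM in PMSC-MF-7d and 214 ± 5.41 TPM in HSC-MF-7d. In PMSC-MF-7d it did not stand apart from Plxna1, at 199 ± 27.5 TPM, by more than the spread. Its libraries held 328, 315, 258 and 373 CPM in PMSC, 400.4, 494, 434 and 436 CPM in PMSC-MF-3d and 573, 544, 657 and 636 CPM in PMSC-MF-7d. They held 564, 591, 572 and 578 CPM in HSC-MF-7d, against 359.9, 372, 292 and 268 CPM in HSC. The increase was 0.92 ± 0.11 (SE, edgeR adjusted p = 4e-07) in the portal and 0.83 ± 0.11 (SE, edgeR adjusted p = 1.59e-06) in the stellate culture, with a difference of 0.085 ± 0.16 (SE, edgeR adjusted p = 0.677). Both comparisons between lineages missed the threshold, at -0.021 ± 0.11 (SE, edgeR adjusted p = 0.879) fresh and 0.064 ± 0.11 (SE, edgeR adjusted p = 0.678) cultured. With library totals the fresh value became -0.36 (edgeR adjusted p = 0.00468) and the difference between the culture changes 0.42 (adjusted p = 0.0193).

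Plxna2, a receptor of class 6 semaphorins, had 94.9, 82.8, 61.2 and 108 CPM in PMSC, 11.6, 12.1, 13.4 and 12.9 CPM in PMSC-MF-3d and 20.9, 16.4, 16.5 and 17 CPM in PMSC-MF-7d, and fell, with a log2 fold change of -2.29 ± 0.14 (SE, edgeR adjusted p = 1.08e-11). HSC-MF-7d had 20.2, 27.5, 25.2 and 27.1 CPM, against 89.9, 89.3, 87.7 and 89 CPM in HSC, a change of -1.83 ± 0.14 (SE, edgeR adjusted p = 3.24e-10). The fresh groups overlapped (-0.035 ± 0.13 (SE, edgeR adjusted p = 0.823)), although PMSC was lower with library totals (-0.38, adjusted p = 0.0165). Plxnb1, the Sema4d receptor, had 20.7, 20.8, 18.2 and 26.3 CPM in PMSC, 1.41, 2.1, 1.36 and 1.58 CPM in PMSC-MF-3d and 6.84, 4, 3.34 and 3.82 CPM in PMSC-MF-7d. It had 11.1, 10.4, 10.3 and 12.7 CPM in HSC-MF-7d, against 88.1, 92.3, 124 and 106 CPM in HSC. The stellate lineage held more Plxnb1 both fresh (-2.25 ± 0.18 (SE, edgeR adjusted p = 1.2e-09)) and cultured (-1.31 ± 0.19 (SE, edgeR adjusted p = 1.29e-05)), and both cultures lowered it. Plxna3, a Sema3f receptor with neuropilin 2, was higher in the portal lineage at both stages, with 16.4 to 40.2 CPM in PMSC-MF-7d and 2.39 to 3.39 CPM in HSC-MF-7d. Its log2 fold change was 3.53 ± 0.23 (SE, edgeR adjusted p = 3.68e-11) in PMSC against HSC and 3.26 ± 0.22 (SE, edgeR adjusted p = 5.14e-10) in PMSC-MF-7d against HSC-MF-7d. Plxnb3, a Sema5a receptor, stayed at or below 2.72 CPM in every library, with 0 counts in all 4 PMSC-MF-3d libraries, where it was at least 17.3-fold lower than in PMSC (28 counts, floor of 3 counts over the group).

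Of the 13 membrane-bound semaphorins, 10 fell and 2 rose in PMSC-MF-7d against PMSC, and 9 fell and 3 rose in HSC-MF-7d against HSC. Over all genes, 39% were lower and 38.1% higher in the portal culture, and 38.5% lower and 36% higher in the stellate culture. Sema4c, which signals through plexin B2, was the most abundant of them in fresh PMSC, at 159 ± 39.3 TPM. It had 307, 468, 334 and 259 CPM in PMSC, 17.3, 19.5, 20.8 and 21.2 CPM in PMSC-MF-3d and 16.1, 15, 21.5 and 16.9 CPM in PMSC-MF-7d. Stellate libraries had 16.7, 19.2, 15.2 and 15.8 CPM in HSC-MF-7d, against 123, 136, 163 and 122 CPM in HSC. The lineages differed when fresh, by 1.33 ± 0.15 (SE, edgeR adjusted p = 1.4e-07), and overlapped as day 7 myofibroblasts, at 0.055 ± 0.16 (SE, edgeR adjusted p = 0.808). Sema4c fell, with a log2 fold change of -4.30 ± 0.17 (SE, edgeR adjusted p = 2.06e-14) in the portal and -3.02 ± 0.16 (SE, edgeR adjusted p = 2.48e-12) in the stellate culture, with a difference of -1.28 ± 0.22 (SE, edgeR adjusted p = 4.11e-05).

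Sema4a, which acts on T cells and on vessels, had 103, 81.8, 70.6 and 82.2 CPM in PMSC, 1.07, 1.2, 1.1 and 0.715 CPM in PMSC-MF-3d and 0.398, 0.734, 0.66 and 0.141 CPM in PMSC-MF-7d. It had 0.158, 0.304, 0.409 and 0.319 CPM in HSC-MF-7d, against 11.7, 11.4, 3.74 and 4.64 CPM in HSC. The fall in the portal culture, -7.45 ± 0.41 (SE, edgeR adjusted p = 2.43e-12), was the largest of any member in that comparison, and every cultured library held less than any fresh one. PMSC stood above HSC by 3.42 ± 0.32 (SE, edgeR adjusted p = 8.62e-09), and by 4.33 (adjusted p = 3.77e-10) without HSC replicates 1 and 2. Those 2 libraries held more Sema4a than HSC replicates 3 and 4. They also held more hepatocyte and more Kupffer cell markers, the latter at 11564 and 5767 CPM, against 5025 and 3113 CPM. The part of such cells in the levels of Sema4a and Sema4g was not tested. Sema4g, another plexin B2 ligand, moved with the same libraries, at 25.5, 24.9, 8.64 and 9.74 CPM in HSC, and had 5.01 to 9.09 CPM in PMSC. Its lower level in PMSC, -1.25 ± 0.34 (SE, edgeR adjusted p = 0.00249), did not pass the test without HSC replicates 1 and 2 (-0.36, adjusted p = 0.335). Culture lowered Sema4g to 1.3 to 3.26 CPM in PMSC-MF-7d and 2.31 to 2.93 CPM in HSC-MF-7d.

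Sema4b, a widely expressed class 4 semaphorin, was -1.98 ± 0.21 (SE, edgeR adjusted p = 8.74e-08) in PMSC against HSC, with 7.52 to 23.4 CPM and 47.6 to 59.7 CPM. It fell in stellate culture, to 17.3 to 20.8 CPM (-1.57 ± 0.21 (SE, edgeR adjusted p = 1.29e-06)), and the cultured lineages overlapped (0.082 ± 0.21 (SE, edgeR adjusted p = 0.782)). Its portal increase of 0.49 ± 0.21 (SE, edgeR adjusted p = 0.0419) was small, with overlapping libraries, and was lost without any one of PMSC replicates 1, 2 and 3 or PMSC-MF-7d replicates 3 and 4 (log2 fold changes of 0.28 to 0.51). Sema4d, the plexin B1 ligand of lymphocytes, stayed low, at 1.88 to 3.31 CPM in PMSC, 0.283 to 0.77 CPM in PMSC-MF-7d, 1.54 to 2.68 CPM in HSC-MF-7d and 5.96 to 11.6 CPM in HSC. PMSC lay below HSC, with a log2 fold change of -1.79 ± 0.35 (SE, edgeR adjusted p = 0.000111), beside lymphocyte marker sums of 2.44 to 4.8 CPM in PMSC and 62.4 to 240.3 CPM in HSC, whose part was not tested. Sema4f had 0 counts in all 4 HSC libraries and was at least 6.95-fold higher in PMSC (18 counts) and at least 38.8-fold higher in HSC-MF-7d (126 counts), against a floor of 3 counts over the HSC group. Its highest level in any library was 2.31 CPM, in HSC-MF-7d. Without PMSC replicate 1 the edgeR adjusted p of Sema4f in PMSC against HSC went from 0.00786 to 0.0322.

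Sema5a, a semaphorin with thrombospondin repeats that binds plexins A1 and B3, was a portal transcript among fresh cells. It had 122, 148, 106 and 147 CPM in PMSC, 26.9, 38.3, 31.5 and 31.3 CPM in PMSC-MF-3d and 14.7, 16.3, 15.5 and 9.83 CPM in PMSC-MF-7d. HSC-MF-7d had 17, 23.4, 22.6 and 23.8 CPM, against 9.48, 12.2, 6.22 and 11.6 CPM in HSC. PMSC stood above HSC by 3.73 ± 0.21 (SE, edgeR adjusted p = 4.8e-12). The portal fall of -3.22 ± 0.20 (SE, edgeR adjusted p = 1.39e-11) and the stellate increase of 1.14 ± 0.20 (SE, edgeR adjusted p = 2.9e-05) left PMSC-MF-7d slightly below HSC-MF-7d, with a log2 fold change of -0.62 ± 0.19 (SE, edgeR adjusted p = 0.00996). The portal change minus the stellate change was -4.36 ± 0.28 (SE, edgeR adjusted p = 1.1e-10). Sema5b, its close relative, had 2.19, 1.58, 2.19 and 4.94 CPM in PMSC and at most 0.478 CPM in any other library. It had 0 counts in all 4 PMSC-MF-3d libraries, at least 101-fold below PMSC, and PMSC-MF-7d, with 25 counts, was at least 8.26-fold above them.

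All 4 class 6 semaphorins were lower in PMSC than in HSC and fell in both cultures. Sema6d, the plexin A1 ligand, was the most abundant membrane-bound semaphorin of HSC (234 ± 28.3 TPM) and of HSC-MF-7d (68.3 ± 8.26 TPM). It had 173, 145, 124 and 185 CPM in PMSC, 18, 24.9, 25.2 and 22.7 CPM in PMSC-MF-3d and 30.7, 15.6, 27.6 and 31.2 CPM in PMSC-MF-7d. It had 139.6, 179, 179.9 and 172 CPM in HSC-MF-7d, against 600.2, 646, 716 and 538 CPM in HSC. The lineage difference was -1.99 ± 0.18 (SE, edgeR adjusted p = 6.38e-09) fresh and -2.67 ± 0.19 (SE, edgeR adjusted p = 8.06e-10) in day 7 myofibroblasts, and no library of one lineage overlapped the other at either stage. Sema6a, a ligand of plexins A2 and A4, had 17.5, 15, 13.8 and 20.6 CPM in PMSC, 0.533, 0.862, 1.06 and 1.28 CPM in PMSC-MF-3d and 0.471, 0.53, 0.513 and 0.459 CPM in PMSC-MF-7d. Its libraries in the stellate lineage held 0.684, 0.912, 1.02 and 0.85 CPM in HSC-MF-7d, against 114, 103, 128 and 134 CPM in HSC. It fell, with a log2 fold change of -7.11 ± 0.20 (SE, edgeR adjusted p = 4.57e-16) in stellate and -5.08 ± 0.20 (SE, edgeR adjusted p = 2.18e-14) in portal culture, a difference of 2.04 ± 0.31 (SE, edgeR adjusted p = 1.27e-05).

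Sema6b, a plexin A4 ligand, had 23.2, 26.8, 27.9 and 21.7 CPM in PMSC, 2.09, 3.67, 3.15 and 1.92 CPM in PMSC-MF-3d and 1.16, 1.35, 1.98 and 0.884 CPM in PMSC-MF-7d. It had 2.94, 3.6, 3.41 and 3.77 CPM in HSC-MF-7d, against 37.5, 37.2, 38.7 and 39.1 CPM in HSC. It fell, with a log2 fold change of -4.21 ± 0.22 (SE, edgeR adjusted p = 1.28e-12) in the portal and -3.47 ± 0.21 (SE, edgeR adjusted p = 1.31e-11) in the stellate culture. Sema6c, the remaining class 6 member, had 24.9, 17.2, 18.4 and 23.2 CPM in PMSC, 2.59, 3.07, 3.71 and 3.01 CPM in PMSC-MF-3d and 5.43, 2.49, 4.18 and 4.31 CPM in PMSC-MF-7d. It had 4.47, 5.17, 3.75 and 4.41 CPM in HSC-MF-7d, against 51.4, 54.7, 72.9 and 63 CPM in HSC. It fell, with a log2 fold change of -2.35 ± 0.19 (SE, edgeR adjusted p = 1.12e-09) in the portal and -3.76 ± 0.20 (SE, edgeR adjusted p = 2.49e-12) in the stellate culture, a difference of 1.41 ± 0.27 (SE, edgeR adjusted p = 0.000143). The differences between the culture changes of Sema6b (-0.73, adjusted p = 0.0339) and Sema6d (-0.68, adjusted p = 0.0231) were both lost with library totals (-0.39 and -0.34, adjusted p = 0.245 and 0.234), and the sign of the Sema6b difference turned with limma on log2(TPM + 1), to 0.14. The Sema6b difference was also lost without any one of PMSC replicate 3, PMSC-MF-7d replicates 1, 2 and 4, HSC replicates 1 and 2 and HSC-MF-7d replicates 2, 3 and 4 (log2 differences of -0.72 to -0.57, adjusted p = 0.0525 to 0.089), and the Sema6d difference without PMSC replicate 4, HSC replicate 4 or HSC-MF-7d replicate 3 (log2 differences of -0.63 to -0.59, adjusted p = 0.0502 to 0.056).

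Sema7a, the glycolipid-anchored semaphorin that binds plexin C1 and beta-1 integrins and has been linked to fibrosis, peaked at day 3. It had 7.85, 5.94, 1.98 and 3.6 CPM in PMSC, 109, 109, 121 and 132 CPM in PMSC-MF-3d and 11.3, 24, 24.7 and 24.2 CPM in PMSC-MF-7d. Stellate cultures had 10.4, 6.99, 5.93 and 7.33 CPM in HSC-MF-7d, against 0.905, 0.0596, 1.82 and 0.523 CPM in HSC. At 82.3 ± 8.27 TPM it was the most abundant semaphorin of PMSC-MF-3d, while in PMSC-MF-7d its 15.7 ± 4.68 TPM lay within the spread of Sema4b at 12.3 ± 0.664 TPM and Sema4c at 11.5 ± 1.99 TPM. It rose by 4.57 ± 0.39 (SE, edgeR adjusted p = 1.55e-09) to day 3, then fell, with a log2 fold change of -2.48 ± 0.34 (SE, edgeR adjusted p = 1.33e-05) to day 7, which left it 2.08 ± 0.36 (SE, edgeR adjusted p = 3.49e-05) above fresh PMSC. The stellate increase was 3.17 ± 0.47 (SE, edgeR adjusted p = 4.72e-06), or 3.96 without HSC replicate 3. Among fresh cells PMSC exceeded HSC by 2.54 ± 0.49 (SE, edgeR adjusted p = 0.000111), or 3.30 without that library. PMSC-MF-7d stood above HSC-MF-7d by 1.45 ± 0.34 (SE, edgeR adjusted p = 0.00173), and PMSC-MF-3d stood above it by 3.94 ± 0.37 (SE, edgeR adjusted p = 3.25e-08). The difference between the 7-day culture changes was -1.09 ± 0.61 (SE, edgeR adjusted p = 0.131).

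Ligands and their known receptors were set side by side by mean TPM. Sema7a averaged 2.59, 82.3 and 15.7 TPM in PMSC, PMSC-MF-3d and PMSC-MF-7d, where its receptor Plxnc1 averaged 8.29, 0.427 and 0.338 TPM. In HSC-MF-7d Sema7a averaged 5.82 and Plxnc1 0.745 TPM, against 0.588 and 247 TPM in HSC. The receptor was thus abundant where the ligand was scarce, and the ligand was highest in a group with less than 1 TPM of the receptor. Itgb1, the beta subunit of the integrins that also bind Sema7a, averaged 1073 TPM in PMSC-MF-3d, against 442 TPM in PMSC. Itga1, an integrin alpha subunit, went the other way by day 3, at -2.18 ± 0.21 (SE, edgeR adjusted p = 1.02e-08). At day 7 Itga1 was near its fresh PMSC level, at -0.019 ± 0.20 (SE, edgeR adjusted p = 0.94). Sema3e and Plxnd1 ran in opposite directions in culture as well, with 10.9 and 6.62 TPM in PMSC-MF-7d, against 0.632 and 26.9 TPM in PMSC. HSC-MF-7d held both, at 24.8 TPM of Sema3e and 52.2 TPM of Plxnd1, against 0.025 and 162 TPM in HSC.

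Sema3a was present together with its receptor parts in both 7-day cultures. In PMSC-MF-7d Sema3a averaged 66.5, Nrp1 55.3 and Plxna1 199 TPM, against 5.97, 150.2 and 19 TPM in PMSC. In HSC-MF-7d they averaged 120.2, 166 and 134 TPM, against 5.35, 358 and 35.1 TPM in HSC. Ligand and plexin rose in each culture while the neuropilin fell. The Plxnb2 ligand Sema4c moved the other way from its receptor. It averaged 11.5 TPM in PMSC-MF-7d, against 159 TPM in PMSC, and 11.2 TPM in HSC-MF-7d, against 82.8 TPM in HSC. Sema3f and Nrp2 differed between lineages after culture, with 13.3 and 17.6 TPM in PMSC-MF-7d and 1.42 and 8.22 TPM in HSC-MF-7d. These values are transcript levels, and no binding was measured.

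Portal and stellate myofibroblasts differed in which members they held. In PMSC-MF-7d against HSC-MF-7d, 20 of 31 members differed, 6 higher and 14 lower, where 47.1% of all genes differed. The median log2 fold change of members was -0.62, against 0 over all genes. The 6 higher members were Sema3f, Sema3b, Plxna3, Sema7a, Nrp2 and Plxna1. Among the 14 lower ones, Sema3d, Plxnd1, Sema6d and Sema4d differed by more than 2 on the log2 scale. In PMSC-MF-3d against HSC-MF-7d, since the series design text gives 3 days for the stellate cultures, 22 members differed, 8 higher and 14 lower, where 54.6% of all genes differed. Sema3a, which was -0.84 ± 0.16 (SE, edgeR adjusted p = 0.000288) in PMSC-MF-7d against HSC-MF-7d, was -2.80 ± 0.17 (SE, edgeR adjusted p = 1.43e-10) in PMSC-MF-3d against HSC-MF-7d. Sema3c took opposite signs at the 2 times, 0.995 ± 0.37 (SE, edgeR adjusted p = 0.0277) at day 3 and -1.03 ± 0.37 (SE, edgeR adjusted p = 0.0288) at day 7, and several libraries left out in turn ended either call, with log2 fold changes of 0.87 to 1.08 at day 3 and -1.09 to -0.93 at day 7.

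**Figure D4:**
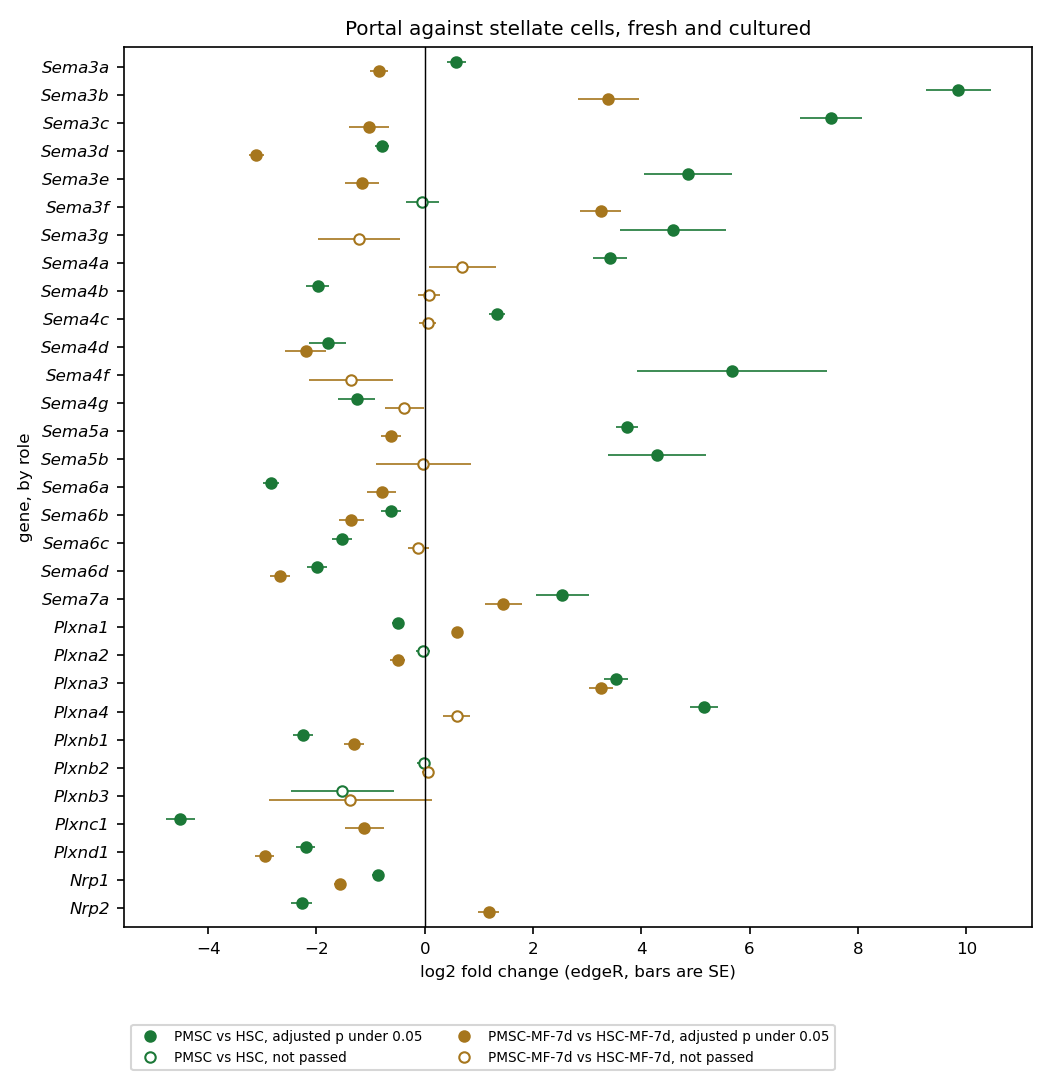
Log2 fold change with its standard error for each member in PMSC against HSC and in PMSC-MF-7d against HSC-MF-7d, open where the adjusted p was 0.05 or more. Sema3b and Plxna3 lie above 0 and Sema6d and Plxnd1 below 0 in both comparisons, and Nrp2 lies below 0 in fresh cells and above 0 in myofibroblasts. The fresh value of Sema4f, which had no count in HSC, depends on the prior count.

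Between day 3 and day 7 of portal culture, 18 members changed, 8 higher and 10 lower, where 36% of all genes changed. Sema3f, Sema3a, Plxnb1, Plxna3, Plxna1, Plxna2 and Plxnb2 rose, as did Sema5b, given above as a bound. Sema7a and Sema3c fell the furthest, and Nrp1, Plxnd1, Plxna4, Sema5a, Sema3d, Sema6a, Sema6b and Sema4d fell by 0.56 to 1.19 on the log2 scale. The Sema4d call was lost without any one of PMSC-MF-3d replicates 1 and 2 or PMSC-MF-7d replicates 1, 2 and 4 (log2 fold changes of -1.08 to -0.85). By day 3, 28 members had changed against fresh PMSC, 6 higher and 22 lower, where 78.3% of all genes changed and 41.1% were lower. The members higher at day 3 were Sema3a, Sema3e, Sema7a, Plxna1, Plxnb2 and Nrp2. The change over the culture differed between the lineages for 25 members, 8 with a higher and 17 with a lower change in the portal culture, where 60.6% of all genes differed and 29.2% had a lower change. This split was 10 and 13 with library totals and 11 and 12 with limma on log2(TPM + 1), and without HSC replicates 1 and 2 it was 8 and 13.

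Genes around the pathway were taken as lists: 19 co-receptors and other receptors, 5 VEGF ligands of neuropilins, 39 genes listed as plexin effectors and 4 proprotein convertases, which cleave class 3 semaphorins. The receptor list includes Plxdc1 and Plxdc2 and the effector list Rangrf and Micall1, whose part in semaphorin signalling was not examined. Of the other receptors, 6 of 18 tested were higher and 9 lower (all genes 33.6% and 40.1%) in PMSC against HSC. Mst1r, a receptor kinase that can pair with plexins, stood 8.77 higher on the log2 scale, and the VEGF receptors Kdr and Flt4 had log2 fold changes of -7.45 and -6.43, beside the endothelial marker sums above. In culture, 6 of 18 tested were higher and 9 lower (all genes 38.1% and 39%) in PMSC-MF-7d against PMSC and 6 of 18 tested were higher and 8 lower (all genes 36% and 38.5%) in HSC-MF-7d against HSC. Nrcam, an adhesion molecule that partners neuropilin 2, rose in both, by 2.51 and 8.17. Between the myofibroblasts, 6 of 18 tested were higher and 6 lower (all genes 23.9% and 23.1%), led by Mst1r at 5.55.

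Of the VEGF ligands, 4 of 5 tested were higher and 1 lower (all genes 33.6% and 40.1%) in PMSC against HSC, with Vegfd at 9.82, Pgf at 7.45, Vegfa at 3.99 and Vegfc at 1.44 on the log2 scale. In PMSC-MF-7d against PMSC, 0 of 5 tested were higher and 4 lower (all genes 38.1% and 39%), and in HSC-MF-7d against HSC, 3 of 5 tested were higher and 1 lower (all genes 36% and 38.5%). Pgf, placental growth factor, had log2 fold changes of -2.33 in the portal and 8.73 in the stellate culture, and Vegfa had log2 fold changes of -1.32 and 2.71. Between the myofibroblasts, 1 of 5 tested were higher and 2 lower (all genes 23.9% and 23.1%) in PMSC-MF-7d against HSC-MF-7d, with Vegfd at 4.06 and Pgf at -3.61.

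Of the plexin effectors, 13 of 38 tested were higher and 19 lower (all genes 33.6% and 40.1%) in PMSC against HSC, 23 of 38 tested were higher and 9 lower (all genes 38.1% and 39%) in PMSC-MF-7d against PMSC and 21 of 38 tested were higher and 13 lower (all genes 36% and 38.5%) in HSC-MF-7d against HSC. Mical2, an actin-oxidising enzyme, rose in both cultures, by 2.16 in the portal and 3.20 in the stellate culture, and Pak1, a kinase downstream of Rac, rose by 2.85 in the portal culture. Between the myofibroblasts, 12 of 38 tested were higher and 8 lower (all genes 23.9% and 23.1%), and from day 3 to day 7, 15 of 38 tested were higher and 0 lower (all genes 18.6% and 17.4%). Of the convertases, 3 of 4 tested were higher and 1 lower (all genes 33.6% and 40.1%) in PMSC against HSC and 2 of 4 tested were higher and 2 lower (all genes 38.1% and 39%) in PMSC-MF-7d against PMSC. Pcsk6 stood 5.93 higher in PMSC than in HSC and then had log2 fold changes of -1.95 in the portal culture and 4.12 in the stellate culture. In HSC-MF-7d against HSC, 2 of 4 convertases tested were higher and 0 lower (all genes 36% and 38.5%). Furin, the convertase first shown to cleave Sema3 proteins, rose in both cultures, by 1.40 in HSC-MF-7d against HSC and 0.40 in PMSC-MF-7d against PMSC.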

How the data were processed

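Messenger RNA was sequenced in 20 libraries. Per the labels' protocols, RNA came from a Qiagen RNeasy Micro kit and libraries from a KAPA stranded kit, and FastQC, Trimmomatic, STAR 2.5.3a, RSEM 1.2.28 and mm10 are named in the submitters' processing notes. Per the file headers, the deposited expected counts are RSEM estimates per gene, which were rounded here, although 0 of 620 values of the members had a fraction. Deposited TPM values, length-scaled by RSEM per the file headers, were used as they are, and the FPKM column was not used.

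Genes were kept by filterByExpr (14751 of 24848; 10097 left out), scaled by TMM and fitted with edgeR 4.0.16 in R 4.3.3 (robust quasi-likelihood, 1 mean per group, 20 libraries together), with Benjamini-Hochberg adjustment over all genes tested and calls at 0.05. SE is the size of the log2 fold change divided by the root of F. The fit was tested on simulated data. Within-group library pairs differed beyond sampling noise (chi-square per degree of freedom 3.27 to 82.7), so none was taken as a duplicate. A gene with no count in a group was bounded against 3 counts over the group, and intervals are 95% and cover counting error only.

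The members and the gene lists were chosen with earlier results of these data known. Values in every library are given for members that passed with a log2 fold change of at least 2 and 10 TPM in the higher group, and for the most abundant of each role. From the pathway lists up to 4 called genes with the largest change and at least 10 CPM were eligible for naming. Alternatives were RLE factors, library totals, no filter, DESeq2 1.42.0, limma 3.58.1 on log2(TPM + 1) and log2(TPM + 0.1), only the groups compared, the replicate number as a block, and each library left out. Member positions came from RefSeq on GRCm38.p6, matched by the transcript accessions in the files for all 31 members. Promoters came from RefSeq on the same build, matched by gene symbol, for 26 members.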

Additional observations from a re-analysis of the deposited data

Results flagged for a closer look

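Of 126 sets of 4 libraries, 1 for each member and group with a mean of at least 1 CPM, 7 held a library whose gap to the nearest other, divided by the range of the set, was above Dixon's 95% critical value. Chance gives about 1 in 20 such sets. Sema3e in PMSC replicate 3 had 6.16 CPM, against 0.988 to 1.86 CPM in the other PMSC libraries (ratio 0.831), and Sema3e in HSC-MF-7d replicate 1 had 51.6 CPM, against 74.1 to 78.6 CPM (ratio 0.834). Sema7a in PMSC-MF-7d replicate 1 had 11.3 CPM, against 24 to 24.7 CPM (ratio 0.946), and Plxna2 in the same library had 20.9 CPM, against 16.4 to 17 CPM (ratio 0.881). Sema3d in PMSC-MF-7d replicate 3 had 41.7 CPM, against 30.7 to 31.6 CPM (ratio 0.912). Nrp2 in HSC-MF-7d replicate 4 had 26 CPM, against 17.6 to 17.9 CPM (ratio 0.964), and Plxnc1 in HSC-MF-7d replicate 3 had 1.57 CPM, against 2.33 to 2.42 CPM (ratio 0.897).

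For 25 members the change in portal culture (PMSC-MF-7d over PMSC) differed from that in stellate culture (HSC-MF-7d over HSC) by the test of the difference itself (edgeR, adjusted p under 0.05, where 60.6% of all genes differed). On the log2 scale, portal minus stellate, the secreted ligands gave -8.52 for Sema3c, -6.46 for Sema3b, -2.32 for Sema3d, -1.42 for Sema3a and 3.29 for Sema3f. The receptors gave -4.57 for Plxna4, 3.40 for Plxnc1, 1.09 for Plxna1, 0.94 for Plxnb1, -0.76 for Plxnd1, -0.46 for Plxna2, 3.45 for Nrp2 and -0.70 for Nrp1. The Plxna2 call (edgeR adjusted p = 0.0411) was lost without any one of the 16 libraries compared other than PMSC replicates 2 and 3, PMSC-MF-7d replicate 1 and HSC-MF-7d replicate 1 (log2 differences of -0.46 to -0.34, adjusted p = 0.06 to 0.11). Among membrane-bound semaphorins the values were -4.36 for Sema5a, -2.73 for Sema4a, -1.28 for Sema4c, -0.73 for Sema6b and -0.68 for Sema6d, and on the positive side 2.06 for Sema4b, 2.04 for Sema6a and 1.41 for Sema6c. For Sema4f (-7.04), Sema3b (-6.46), Sema3e (-6.02), Sema3g (-5.80) and Sema5b (-4.32) the fitted size depends on groups with 0 or few counts and is no measure of fold. Fresh groups enter both these differences and the fresh comparison, so the values are not independent of PMSC against HSC. Sema3c, Sema5a and the low-count Sema3g fell in the portal and rose in the stellate culture, and Sema4b the reverse, each past the test in both with all libraries. The Sema4b portal call was lost without any one of several libraries, and the Sema3g stellate call without HSC replicates 1 and 2, as given above.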

How the results depend on the processing

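Across 248 member results (31 members in 8 comparisons) and 4288 recalculations under alternatives, 4115 kept direction and side of the threshold, 122 lost a call, 49 gained one and 2 reversed. Of 195 called results, 170 held throughout. Both reversals came with limma on log2(TPM + 1): the difference between the culture changes was 0.64 for Sema4d (adjusted p = 0.0246; -0.41 with edgeR, adjusted p = 0.5) and 0.14 for Sema6b (adjusted p = 0.549; -0.73 with edgeR, adjusted p = 0.0339); the cause was not tested. No count of members called moved by over 1.5 times. Leaving out each library in turn gave 27 of 31 members called in PMSC against HSC every time. It gave 28 to 29 in PMSC-MF-3d against PMSC, 26 to 28 in PMSC-MF-7d against PMSC, 17 to 21 in PMSC-MF-7d against PMSC-MF-3d and 27 to 28 in HSC-MF-7d against HSC. It gave 18 to 20 in either portal culture against HSC-MF-7d (22 with all libraries for PMSC-MF-3d, 20 for PMSC-MF-7d) and 22 to 26 for the difference between the culture changes. Without HSC replicates 1 and 2, an alternative chosen after seeing the data, the counts were 25 in PMSC against HSC, 26 in HSC-MF-7d against HSC and 21 for the difference. DESeq2 called 27 members in PMSC against HSC, 27 in PMSC-MF-7d against PMSC and 27 in HSC-MF-7d against HSC. Scaling by library totals moved the median of all genes by over 0.1 (log2) in the comparisons that hold PMSC, to -0.44 in PMSC against HSC, 0.41 in PMSC-MF-3d against PMSC, 0.43 in PMSC-MF-7d against PMSC and 0.44 for the difference, and the higher share of all calls in these from 45.6%, 47.5%, 49.4% and 51.8% to 33.3%, 61.7%, 63.5% and 66%. Taken over all groups, the replicate numbers did not pair the libraries (40 same-numbered pairs, correlations of deviations -0.052 to 0.145, 3 above 0.1, and 10 highest with their own number). Between PMSC-MF-3d and PMSC-MF-7d, replicates 1, 2 and 4 were highest with their own number (0.1222, 0.1004 and 0.08854). Replicate 3 was not (0.002427), so pairing between these groups is undecided. With the replicate number as a block, 246 of 248 results were unchanged, and the Plxna2 difference (-0.45, adjusted p = 0.0535) lost and Sema4a in PMSC-MF-7d against PMSC-MF-3d (-1.10, adjusted p = 0.0474) gained its call. Depth limits Sema3g, Sema4f, Sema5b and Plxnb3, whose group totals fell to 0 to 3 counts in places. Sema3b and Sema3e had few counts in HSC as well.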
